A study of Mus musculus with 6 samples.

Results

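The genes described here are 10 genes of the myostatin and activin pathway in gastrocnemius, a calf muscle, of mice that lack TAK1 in skeletal muscle. They are the ligands Mstn and Gdf11, the ligand trap Fst, and the receptors Acvr2a, Acvr2b, Acvr1b and Tgfbr1. The others are the signal transducers Smad2 and Smad3, and Mss51, which encodes a mitochondrial protein and responds to this pathway. The 10 genes were picked by symbol from the 22180 genes measured on 6 Affymetrix expression arrays. Each of the 10 genes had 1 probe set of its own, so a planned choice of the brightest probe set per gene had nothing to decide. The list was drawn up with earlier results of these arrays in view, among them the low Mss51, Smad3 and Gdf11 levels of the knockout. The differences between genotypes below therefore describe these genes, and their p-values, which come from the fit over all genes, are not independent evidence.

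The knockout group was 3 mice with muscle-specific TAK1 deletion, taken 3 weeks after the deletion. The control group was 3 littermates with a floxed TAK1 gene. Both groups thus came from the floxed line, and the Cre driver, sex and age of the mice are not stated in the labels. Each array carried RNA of 1 mouse. Levels are log2 probe set summaries, on which a difference of 1 is a doubling.

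Myostatin, activins and Gdf11 are secreted relatives of TGF-beta. They bind a type II receptor (Acvr2a or Acvr2b), which activates a type I receptor (Acvr1b or Tgfbr1), which in turn phosphorylates Smad2 and Smad3. These join Smad4 and act on genes in the nucleus. In skeletal muscle myostatin is the best known brake on fibre growth, and follistatin (Fst) blocks it by binding it outside the cell. TAK1, encoded by Map3k7, is a kinase through which TGF-beta family receptors also signal without SMADs. Mss51 is a muscle-specific mitochondrial protein whose transcript is known to fall when myostatin is inhibited in mouse muscle.

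The upstream DNA of 4 of these genes is shown because they are the genes on which the results turn, the 3 genes whose knockout and control levels did not overlap (Mss51, Smad3 and Gdf11) and Mstn, whose levels did. Each run is the 250 bases before the gene start in RefSeq, build GRCm38.p6, on the gene's strand. Capitals mark the palindromic SMAD element GTCTAGAC, the SMAD core element CAGAC and the E-box CANNTG, the site of myogenic factors, on either strand. The 4 regions are Mss51 at chr14:20496902-20497151 on the minus strand, Smad3 at chr9:63757995-63758244 on the minus strand, Gdf11 at chr10:128891719-128891968 on the minus strand and Mstn at chr1:53061390-53061639 on the plus strand.
Mss51: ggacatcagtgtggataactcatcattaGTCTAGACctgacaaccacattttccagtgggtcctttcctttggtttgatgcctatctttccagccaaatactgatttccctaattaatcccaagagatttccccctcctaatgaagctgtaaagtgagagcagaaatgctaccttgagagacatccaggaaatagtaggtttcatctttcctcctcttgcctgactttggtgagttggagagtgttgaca
Smad3: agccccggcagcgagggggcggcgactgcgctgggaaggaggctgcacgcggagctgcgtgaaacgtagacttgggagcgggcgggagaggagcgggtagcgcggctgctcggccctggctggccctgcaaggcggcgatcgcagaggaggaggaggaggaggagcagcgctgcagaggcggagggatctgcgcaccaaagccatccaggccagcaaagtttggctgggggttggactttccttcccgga
Gdf11: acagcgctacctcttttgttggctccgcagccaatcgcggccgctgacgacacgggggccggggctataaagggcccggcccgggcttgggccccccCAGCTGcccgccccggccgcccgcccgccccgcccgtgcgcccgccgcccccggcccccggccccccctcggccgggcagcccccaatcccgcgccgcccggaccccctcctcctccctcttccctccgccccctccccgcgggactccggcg
Mstn: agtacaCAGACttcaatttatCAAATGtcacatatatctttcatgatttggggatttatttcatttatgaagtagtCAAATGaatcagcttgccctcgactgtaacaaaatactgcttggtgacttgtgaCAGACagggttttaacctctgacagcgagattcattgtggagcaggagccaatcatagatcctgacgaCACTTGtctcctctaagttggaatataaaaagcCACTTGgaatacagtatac

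The Mss51 region held 1 SMAD palindrome, whose first base lies 222 bases before the gene start. Over 32851 mouse regions of the same length, 55 (0.167%) held this palindrome. The Mstn region held 2 core elements and 4 E-boxes, the Gdf11 region 1 E-box, and the Smad3 region none of these motifs. Core elements occurred in 42.2% and E-boxes in 66.2% of all regions, so a match to either is common. Upstream DNA was found for 8 of the 10 genes, in 9 regions since Tgfbr1 has 2, and 4 of those 8 genes had a core element (Mstn, Acvr2a, Acvr2b and Tgfbr1). The AP-1 motif TGANTCA was found in 1 of the 9 regions, that of Mstn, against 6.75% of all regions. TATAAA was in 2 of the 9 (12.4% of all regions), a 10-base NF-kB motif in 0 (0.140%) and a 10-base MEF2 motif in 0 (2.92%). The Mss51 and Mstn regions were 43.2% and 38.4% G and C, while those of Smad3 and Gdf11 were 69.2% and 81.2%, and the median of all regions was 52.4%. A match is a description of the letters, and the motifs were chosen with these sequences in view.

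Mss51 stood apart from the other genes of the list. Its log2 level was 5.77, 5.52 and 5.77 in the 3 knockout muscles, against 9.20, 7.60 and 8.13 in the 3 control muscles. The groups were separated by a gap of 1.83 between the highest knockout and the lowest control. All 3 knockout values lay below 5.85, a guide to the background of the arrays that 95% of olfactory and vomeronasal receptor genes do not exceed on average. The knockout value is therefore a bound. Judged by the control mean against the background, Mss51 was at least 5.50-fold lower in knockout than in control muscle (measured means 5.69 ± 0.15 and 8.31 ± 0.81, SD, n = 3 each). This figure takes no account of the spread among the controls. The spread was unequal, with a range of 0.26 among knockout and 1.59 among control arrays.

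In the fit over all genes, which uses the measured knockout values although they were not above background, Mss51 fell by 2.62 on the log2 scale (95% confidence interval −3.39 to −1.86, limma, adjusted p = 0.0428). Of the 22180 genes, 21 (0.0947%) passed the adjusted p of 0.05 taken as the threshold, 12 of them lower in the knockout (0.0541%). Mss51 alone among the 10 genes was 1 of them, and only 2 genes in the whole table had a lower measured difference. The call was lost without knockout 1 (limma, adjusted p = 0.133), knockout 2 (0.218), knockout 3 (0.103) or control 3 (0.185). It was also lost with an intensity trend and robust prior (0.0542), with every probe set tested (0.246) and without variance shared between genes (0.513), while the measured log2 difference stayed between −2.98 and −2.18 under all 16 alternatives.

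**Figure D1:**
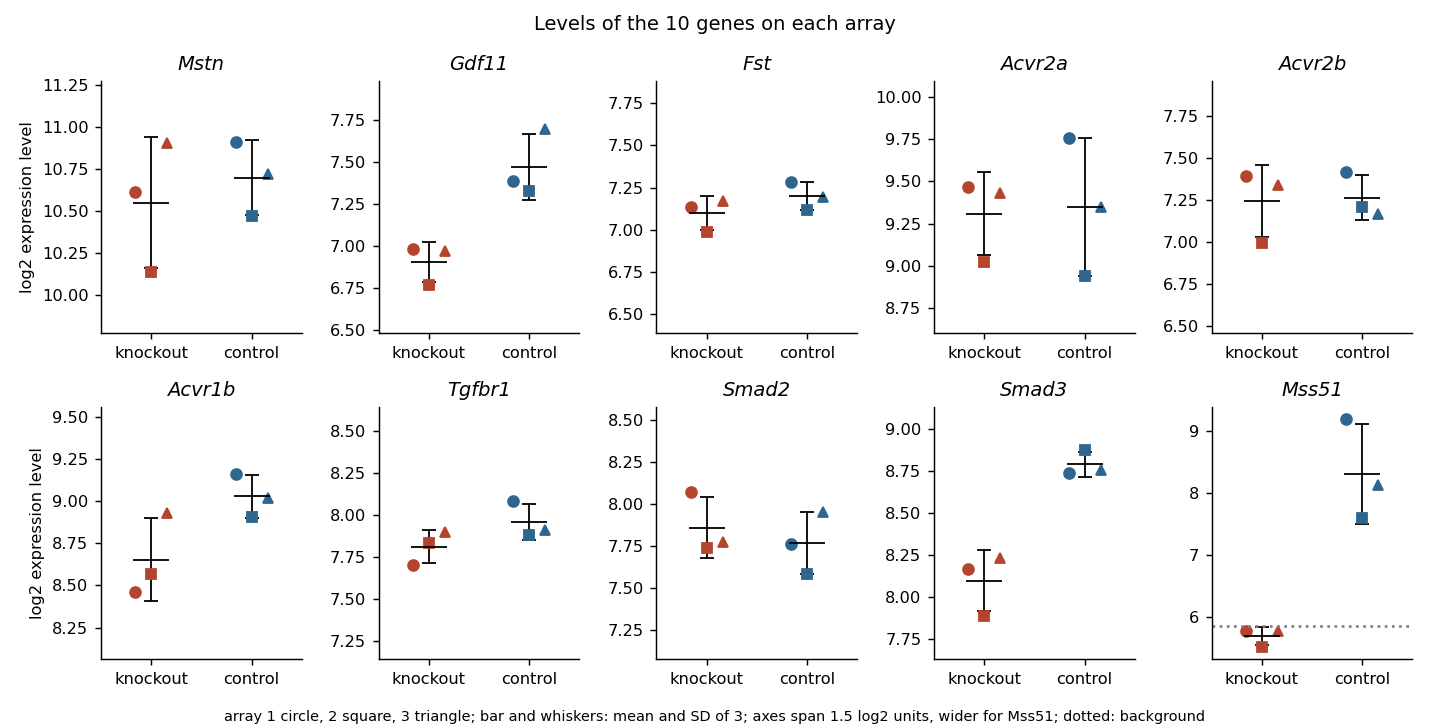
Log2 expression level (vertical axis) of each of the 10 genes on the 3 knockout and 3 control arrays, with a marker shape for each array number, and the mean and SD of 3 arrays as a bar with whiskers. The groups are apart for Gdf11, Smad3 and Mss51, whose knockout values lie below the dotted background level of 5.85.

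Among the transducers, Smad3 had lower values in every knockout muscle and Smad2 did not. Smad3, which binds the SMAD element through its own DNA-binding domain, had log2 levels of 8.17, 7.89 and 8.23 in knockout and 8.74, 8.87 and 8.76 in control muscle. The 3 control values lay within 0.14 of each other, and a gap of 0.51 separated the groups. The knockout level was 38.1% lower, a log2 difference of −0.69 (95% confidence interval −0.96 to −0.43), and it did not pass over all genes (limma, adjusted p = 0.124). When only genes with an above-median mean were tested it passed (adjusted p = 0.0430), as it did with genes above background only (0.0482). All 10 genes were kept by both filters, Mss51 through its control level alone. Smad2, the close relative of Smad3 that is phosphorylated by the same receptors, had levels of 8.07, 7.74 and 7.77 in knockout and 7.76, 7.59 and 7.96 in control muscle. The values of Smad2 overlapped, and its log2 difference of 0.09 had a confidence interval of −0.21 to 0.40 (limma, adjusted p = 0.924). No test of Smad3 against Smad2 was made.

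Of the ligands, Gdf11 had groups apart and Mstn did not, and no test of one against the other was made. Gdf11, a near relative of myostatin, had log2 levels of 6.98, 6.77 and 6.97 in knockout and 7.38, 7.33 and 7.69 in control muscle. Every knockout value was below every control value, with a gap of 0.35. The level was 32.3% lower in the knockout (log2 difference −0.56, 95% confidence interval −0.85 to −0.28), without passing over all genes (limma, adjusted p = 0.233). Mstn had levels of 10.61, 10.14 and 10.90 in knockout and 10.91, 10.47 and 10.72 in control muscle. Its groups overlapped widely, and the range of 0.77 among the knockout arrays was larger than the difference of −0.15 between the means (95% confidence interval −0.60 to 0.30, adjusted p = 0.910). As a change of level the interval runs from −33.9% to 23.1%. The sign of the Mstn difference turned without knockout 2, to 0.06.

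Fst, the antagonist of myostatin and activins, varied little. Its levels were 7.14, 6.98 and 7.17 in knockout and 7.28, 7.12 and 7.19 in control muscle, so the groups overlapped. The log2 difference was −0.10 with a confidence interval of −0.33 to 0.13 (limma, adjusted p = 0.869).

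Of the receptors, Acvr1b, the activin type I receptor also called ALK4, had the largest difference. Its log2 levels were 8.46, 8.57 and 8.93 in knockout and 9.16, 8.91 and 9.02 in control muscle. Knockout 3 lay just above control 2, so the groups overlapped, while knockouts 1 and 2 were below all controls. The knockout mean was 22.9% lower (log2 difference −0.38, 95% confidence interval −0.70 to −0.05) and did not pass over all genes (limma, adjusted p = 0.541). Tgfbr1, the TGF-beta type I receptor ALK5, which also serves myostatin, had levels of 7.71, 7.83 and 7.90 in knockout and 8.08, 7.88 and 7.91 in control muscle. The lowest control of Tgfbr1 lay below the highest knockout, and the log2 difference was −0.15 (−0.38 to 0.09, adjusted p = 0.801).

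The type II receptors, to which myostatin binds first, had nearly equal means. Acvr2a had levels of 9.47, 9.02 and 9.43 in knockout and 9.76, 8.94 and 9.35 in control muscle, and the control values enclosed those of the knockout. Its log2 difference was −0.04 (95% confidence interval −0.51 to 0.44, limma, adjusted p = 0.986). Acvr2b, the main myostatin receptor, had levels of 7.39, 7.00 and 7.34 in knockout and 7.42, 7.21 and 7.16 in control muscle. Its log2 difference was −0.02 (−0.32 to 0.28, adjusted p = 0.987), an interval of −20.1% to 21.5% as a change of level. Without control 1 or without knockout 2 the sign of both type II receptors turned.

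**Figure D2:**
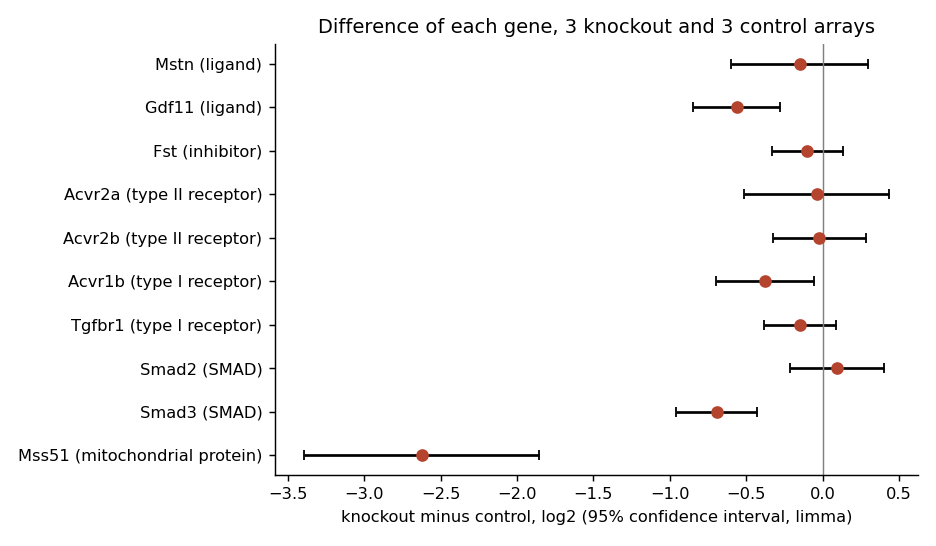
Knockout minus control log2 difference of each of the 10 genes (horizontal axis) with its 95% confidence interval from limma, listed by role. The intervals of Gdf11, Acvr1b, Smad3 and Mss51 lie wholly below 0, and those of the other 6 genes include it.

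Of the 10 genes, 9 were lower in the knockout and 1 (Smad2) was higher, with a median log2 difference of −0.15. Over all genes 50.1% were lower and the median was −0.0003. An unadjusted p under 0.05 was found for 4 of the 10 genes (Mss51, Smad3, Gdf11 and Acvr1b), where 8.04% of all genes had one. The groups did not overlap, with the knockout lower, for 3 of the 10, against 6.65% of all genes. Since the list was drawn up with these differences known, nothing is read from these shares. Ranked from the lowest difference, Mss51 was at position 3, Smad3 at 90, Gdf11 at 169 and Acvr1b at 516 of 22180.

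**Figure D3:**
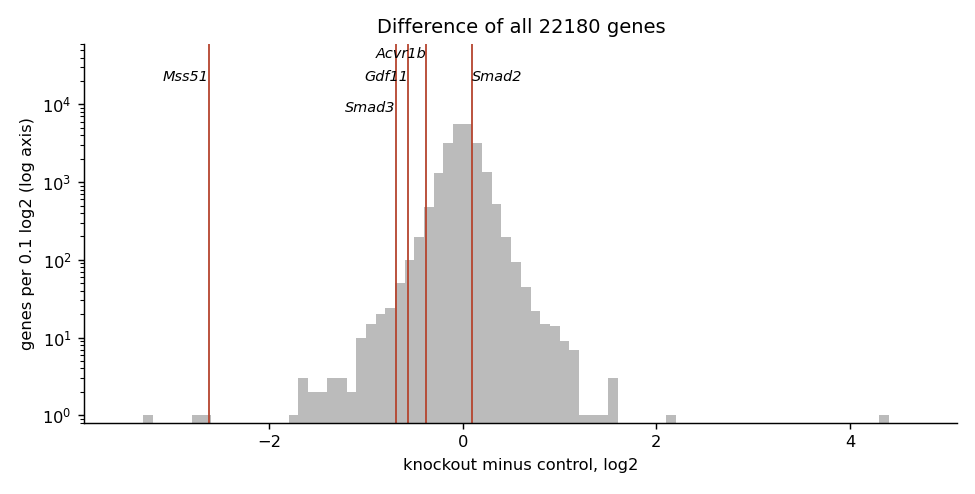
Number of genes (vertical log axis) by knockout minus control log2 difference (horizontal axis) over all 22180 genes, with lines for 5 of the 10 genes. Mss51 at −2.62 lies far from the bulk of genes, Smad3, Gdf11 and Acvr1b on its lower edge, and Smad2 at 0.09 inside it.

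Within groups, the second array of each group gave the lowest value of its group for 8 of the 10 genes, in the knockout (all but Acvr1b and Tgfbr1) as in the control (all but Acvr2b and Smad3). Over the 12601 genes above background, knockout 2 was lowest of its group for 43.7% and control 2 for 43.4%. The shared number does not tie these mice together in the labels.

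The 3 Mss51 knockout values entered the comparison of levels over the 6 arrays as measured, although all lay below the background of 5.85. On these values the genes that followed Mss51 most closely were Zfhx3 (Pearson's r = 0.998), Asb14 (0.994), Gpr4 (0.993), Camk2g (0.993) and Gyg (0.992), picked by r among genes above background. Asb14, a muscle adaptor of ubiquitin ligases, averaged 9.62 ± 0.12 in knockout and 10.49 ± 0.32 in control muscle (SD, n = 3 each). Its highest value was in control 1, as for Mss51, which the choice by r favours. Gyg, the glycogenin that primes glycogen synthesis, averaged 11.51 ± 0.09 in knockout and 12.28 ± 0.20 in control muscle. None of these 5 genes passed over all genes (limma, adjusted p between 0.116 and 0.564), though Gyg passed among genes over the median (0.0398), among genes over background (0.0433) and with a robust prior that follows intensity (0.0408). For Smad3 the closest were Selp (r = 0.996), Asb15 (0.993), Amotl1 (0.992), Clcf1 (0.988) and Kcnk2 (0.987). Selp was near the background of 5.85, with means of 5.80 in knockout and 5.99 in control muscle. In knockout 2, Clcf1 (5.79) and Kcnk2 (5.78) were below that background too. Asb15, another muscle adaptor of the Asb family, fell in the knockout. It averaged 9.67 ± 0.29 in knockout and 11.01 ± 0.07 in control muscle (log2 difference −1.34, limma, adjusted p = 0.0308). The Asb15 call was lost without any 1 of the 6 arrays (adjusted p between 0.0518 and 0.164), with replicate number as a block (0.0783), with every probe set tested (0.149) and without shared variance (0.456). For Gdf11 they were Xirp2 (r = 0.987), Lsm12 (0.985), Unc5a (0.983), Rnf11 (0.981) and Col22a1 (0.980), of which none passed over all genes (adjusted p between 0.233 and 0.705). With 2 groups of 3 arrays, r mostly reflects the difference between groups, and it is given as a measure of likeness without a test.

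**Figure D4:**
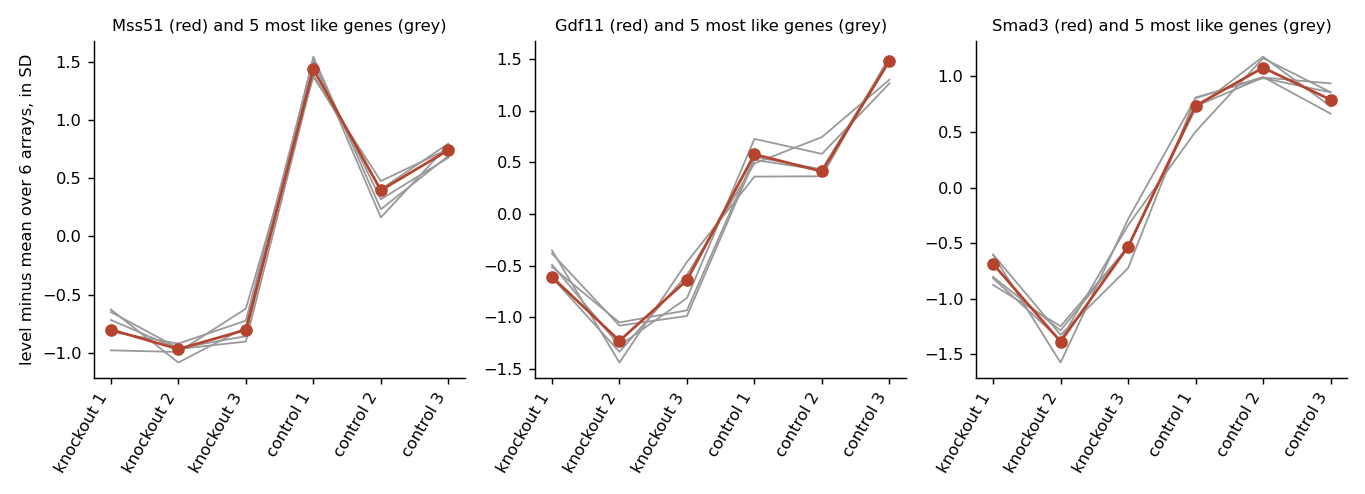
Level of Mss51, Gdf11 and Smad3 (red) and of the 5 genes most like each (grey) on the 6 arrays, as the deviation from the gene's mean over the arrays in units of its SD. Lines join the values of 1 gene, and control 1 is the highest array for Mss51, control 3 for Gdf11 and control 2 for Smad3.

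Of the other genes of the pathway none was called. Of 51 listed genes 49 were measured, 38 of them above background, and 0 passed over all genes (limma), where 0.0947% of all genes passed. An unadjusted p under 0.05 was found by limma for 5 of the 49, where 8.04% of all genes had one. The test without shared variance also gave 5, and its count over all genes is given in the last section. In all 30 were lower and 19 higher in the knockout, with a median log2 difference of −0.03. By role, 7 of 10 other ligands, 8 of 17 extracellular binders and processing enzymes, 4 of 6 receptors, 10 of 14 SMADs and regulators and 1 of 2 targets were lower.

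Zfyve9, which encodes SARA, the anchor that presents Smad2 and Smad3 to the receptor, had the lowest difference among those above background. It averaged 8.71 ± 0.14 in knockout and 9.04 ± 0.11 in control muscle (log2 difference −0.34, limma, adjusted p = 0.471), and its groups did not overlap. At the other end was Nedd4l, a ubiquitin ligase that marks activated Smad2 and Smad3 for breakdown, with 8.80 ± 0.06 in knockout and 8.49 ± 0.14 in control muscle (0.31, adjusted p = 0.487). Its knockout values all lay above its control values. Tgfb3, a TGF-beta ligand, had a log2 difference of −0.25 (adjusted p = 0.607), again with groups apart. In the whole list the groups were apart for 4 of 49 genes with the knockout lower and 2 with it higher. Over all 22180 genes these counts were 1474 and 1494, so nothing is read from the groups being apart. The convertase Pcsk6 (−0.22), the inhibin alpha chain Inha (0.13) and the follistatin-like protein Fstl1 (0.14) overlapped between groups. Without 1 array Pcsk6 ran from −0.36 to −0.027, Inha from 0.047 to 0.20 and Fstl1 from −0.10 to 0.52.

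Core partners of the pathway were close to even. The common partner Smad4 averaged 10.19 ± 0.15 in knockout and 10.17 ± 0.13 in control muscle, a log2 difference of 0.02 (95% confidence interval −0.25 to 0.28). The TGF-beta type II receptor Tgfbr2 differed by 0.04 (−0.23 to 0.31), the ligand Tgfb1 by −0.04 (−0.25 to 0.18), and the follistatin relative Fstl3 by 0.06 (−0.20 to 0.32). Among feedback and inhibitory genes, the inhibitory Smad7 differed by −0.09 (−0.48 to 0.30) and the corepressor Ski by −0.05 (−0.30 to 0.21). The myostatin-binding protein Wfikkn2 differed by −0.08 (−0.35 to 0.20). None of these 7 genes passed (limma, adjusted p between 0.934 and 0.987). The SMAD targets Pmepa1 and Ccn2, whose transcripts TGF-beta raises in many cells, had log2 differences of −0.04 and 0.04, and both signs turned without some single arrays.

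The activin chains were dim. Inhba, the activin A chain, averaged 5.07 ± 0.42 in knockout and 5.54 ± 0.06 in control muscle. Inhbb averaged 5.82 ± 0.06 in knockout and 5.85 ± 0.12 in control muscle. The type I receptor Acvr1c averaged 4.61 ± 0.19 in knockout and 4.86 ± 0.17 in control muscle. In none of these did the mean over both groups exceed the background of 5.85, so no fold is given.

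**Figure D5:**
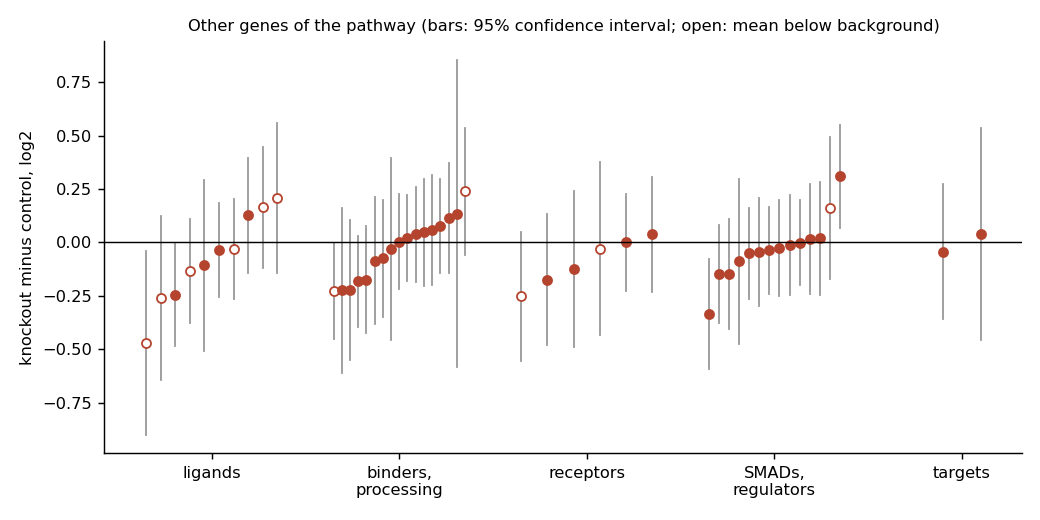
Knockout minus control log2 difference (vertical axis) of the 49 other pathway genes by role, with 95% confidence intervals. Filled points are genes above background and open points those below it, and the filled points run from −0.34 (Zfyve9) to 0.31 (Nedd4l).

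Muscle RNA is a mixture, and fewer cells of a type cannot be told apart here from less RNA per cell. All 9 markers of muscle fibres were above background, with mean log2 levels of 13.60 to 13.66 on the knockout and 13.71 to 13.72 on the control arrays. These levels did not overlap either, though the median log2 difference of the 9 markers was −0.006, with 7 lower and 0 called by limma. Mylpf and Myh1 had the lowest differences (−0.46 and −0.49), and Ckm, Myh4 and Tnnt3 were nearly even (−0.006, −0.003 and −0.002). Actn3 (0.05) and Des (0.17) were higher, Des with all knockout values above all control values, as held for 1494 of all 22180 genes. All 7 tendon markers were lower in the knockout, with mean levels of 6.62 to 7.55 on the knockout and 7.40 to 8.12 on the control arrays (median log2 difference −0.91, 0 called). Of these tendon markers 6 were above background. Mean levels of the tendon list overlapped between the groups, as did those of the lists that follow, with 0 called. Endothelial markers were at 8.61 to 8.66 on knockout and 8.40 to 8.79 on control arrays, and macrophage markers at 7.19 to 7.53 on knockout and 7.11 to 7.45 on control arrays. Satellite cell markers were at 6.52 to 6.72 on knockout and 6.68 to 6.79 on control arrays, and fibro-adipogenic markers at 8.97 to 9.90 on knockout and 9.47 to 9.66 on control arrays. Adipocyte markers were at 6.14 to 6.88 on knockout and 6.35 to 6.93 on control arrays, and Schwann cell markers at 6.32 to 6.49 on knockout and 6.30 to 6.41 on control arrays. The part of these cells in the Mss51, Smad3, Gdf11 and Acvr1b differences was not tested. Map3k7 itself, the targeted gene, was at 8.20, 8.28 and 8.17 in knockout and 8.47, 8.32 and 8.42 in control muscle. Its knockout values all lay below its control values, with a gap of 0.04 (log2 difference −0.19, limma, adjusted p = 0.686). Of all genes 6.65% were apart in this direction, and Map3k7 was at position 2520 of 22180 from the lowest difference. The deleted exons and the place of the probes are not stated in the labels.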

How the data were processed

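The authors deposited log2 summaries of 41345 probe sets on 6 arrays, made with RMA, oligo and limma, per the submitters' processing notes, which state neither versions nor order. RMA makes the arrays' distributions alike and compresses differences of dim genes. Array medians lay between 5.78 and 5.84, and the number of arrays limits the precision. Scan dates were not used here.

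Gene symbols came from the platform annotation of GEO, in which 23521 probe sets had 1 symbol. Per gene the probe set with the highest mean was kept. Knockout and control arrays were compared over all genes with limma 3.58.1 in R 4.3.3 (lmFit, eBayes, group means, two-sided, Benjamini-Hochberg). The test was checked on simulated data with independent normal noise of equal spread in both groups. That check does not cover unequal spread or noise shared by a whole array. Background was the 95th percentile of 1394 receptor gene means. Motifs were searched on both strands in RefSeq upstream sequences. Named genes were the 10 genes, Map3k7, fixed pathway genes, the 3 lowest and 3 highest other pathway genes above background, and the 5 genes most like Mss51, Gdf11 and Smad3 (predicted genes and clone names left out). Genes named beyond this rule were chosen after their values were seen. Members and lists were chosen with earlier results of these data known.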

Additional observations from a re-analysis of the deposited data

How the results depend on the processing

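Over all genes 21 were called, and 1 among the 10 genes. These counts became 53 and 2 among genes over the median, and 45 and 2 among genes over background. Under both filters the 2 were Mss51 and Smad3, and Mss51 passed the filters through its control level alone. The counts were 36 and 0 with a robust prior that follows intensity. In the test without shared variance they were 0 and 0 (limma's residuals, 1612 genes at an unadjusted p under 0.05). With every probe set tested, 6 probe sets rather than genes were called, 1 of them lower in the knockout, and 0 for the 10 genes. The filters test fewer genes, and otherwise the cause was not tested. Without 1 array the counts ran from 2 to 11 over all genes and from 0 to 1 among the 10 genes. Of the other pathway genes 0 were called under each of the 16 alternatives. Array weights, median centring, quantile normalization and averaging the probe sets of a gene gave 20 to 22 called genes and 1 of the 10. With replicate number as a block 17 genes were called, with Mss51 at an adjusted p of 0.0396 (limma), and no call of the 10 genes changed, while Asb15 was no longer called (0.0783). The labels do not say whether same-numbered mice were paired. Deviations of same-numbered arrays from their group means correlated at 0.08, 0.21 and −0.07 across genes. With 3 arrays per group these values cannot decide whether a litter or a batch was shared. Gdf11, Acvr1b, Tgfbr1, Fst, Smad3 and Mss51 were lower in the knockout under all 16 alternatives. Among the other genes computed, signs turned for 15, none of them called, always without 1 array and for Ccn2 also with averaged probe sets (−0.092). The log2 differences without 1 array ran from −0.32 to 0.059 for Mstn, −0.24 to 0.17 for Acvr2a, −0.10 to 0.10 for Acvr2b, −0.013 to 0.19 for Smad2, −0.10 to 0.52 for Fstl1, −0.0033 to 0.13 for Fstl3, −0.064 to 0.081 for Smad4, −0.23 to 0.068 for Smad7, −0.066 to 0.013 for Tgfb1, −0.058 to 0.14 for Tgfbr2, −0.13 to 0.037 for Ski, −0.17 to 0.0048 for Wfikkn2, −0.16 to 0.033 for Pmepa1, −0.18 to 0.28 for Ccn2 and −0.076 to 0.041 for Inhbb, a gene below background. Values that kept their sign but moved by over 1.5 times were those of Fst (−0.14 to −0.043), Tgfbr1 (−0.19 to −0.085), Pcsk6, Inha, Inhba and Acvr1c, the last 2 below background. Signal near background limits Mss51 in the knockout and the activin chains.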
